A study of Mus musculus with 38 samples.

Results

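Empagliflozin was compared with vehicle in the hearts of HFpEF mice, using the 11 libraries titled HFpEF+SGLT2i and the 8 titled HFpEF+Veh, 19 of the 38 libraries of the series. Each library held polyA RNA of the left ventricle of a wild-type C57BL6 mouse and carried its own number in the title, taken here as 1 mouse. All mice of these groups had received a high-fat diet with L-NAME, an inhibitor of nitric oxide synthases, so the diet and the inhibitor were common to treated and control mice. HFpEF+SGLT2i mice were then given empagliflozin by mouth and HFpEF+Veh mice the solvent, the 11 HFpEF+TYA-018 mice received the HDAC6 inhibitor TYA-018 under the same diet and L-NAME, and the 8 non_failing mice received the vehicle as healthy controls. The labels give no age, dose or length of treatment. The labels call the mice female and the methods describe males. The 4 Y-linked genes looked at summed to between 66.3 and 106 counts-per-million (CPM) in the 19 libraries. All 19 thus held Y-linked RNA, as male hearts do. A whole ventricle mixes many cell types, so fewer cells of a type and less RNA per cell cannot be told apart.

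SGLT2, encoded by Slc5a2, takes glucose back from the filtrate in the kidney, and blocking it sends glucose into the urine. Fat stores are then mobilised, and circulating fatty acids and ketone bodies rise, while the heart, which burns mostly fatty acids, receives more of both. In heart muscle, fatty acids activate the nuclear receptor PPARα, which drives genes for the uptake, storage and oxidation of fat and also Pdk4, a kinase that shuts pyruvate from glucose out of the mitochondrial oxidation route. The drug target itself was scarcely sequenced in these ventricles: 9 of the 19 libraries held any Slc5a2 count, the highest was 4, and the gene was not tested.

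The 19 libraries held between 22.1 and 59.3 M counts (M, mega). HFpEF+SGLT2i libraries averaged 35.0 ± 12.7 M counts (SD, n = 11) and HFpEF+Veh libraries 32.4 ± 11.3 M counts (SD, n = 7), with an exact permutation p of 0.665, two-sided. HFpEF+Veh V2523 carried liver transcripts. Albumin reached 1140 CPM there against at most 21.7 in the other vehicle hearts and 6.59 in the treated ones, and the 26 hepatocyte markers summed to 4300 CPM against at most 95.2. V2523 was therefore left out, which gives 11 treated and 7 vehicle hearts, 18 in all, and values with it put back are given for the main results. Cardiomyocyte markers dominated both groups, at 31600 to 37200 summed CPM in vehicle and 24000 to 37200 in treated hearts, and the lowest value was that of HFpEF+SGLT2i V2571.

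Few transcripts changed with empagliflozin when each was tested by itself. Of 13801 genes tested in 1 edgeR fit of 37 libraries, 2 genes, Ucp3 and Pdk4, passed an adjusted p of 0.05, which is 0.0145% of the genes, and both were higher in the treated hearts. No gene fell past that threshold. At an unadjusted p under 0.05 there were 1450 genes, 743 higher (5.38%) and 707 lower (5.12%). Counts of list members at that threshold, given below, are to be set beside these shares. The median log2 fold change over all genes was 0.006. TPM (transcripts-per-million) of the groups did not overlap for 2 genes (0.0145%): Ucp3, and Zfx, an X-linked transcription factor gene at 3.10 to 3.89 in vehicle and 2.42 to 3.09 in treated hearts with a log2 fold change of -0.22 ± 0.07 (SE) and an adjusted p of 0.184. Zfx was noticed only once its values were seen. The count of called genes moved with the libraries and the tool: DESeq2 called 45 genes, 23 higher and 22 lower, and scaling by library size alone called 7, 2 higher and 5 lower. Leaving out HFpEF+SGLT2i V2571 gave 35 called genes, V2572 gave 16, V2566 gave 6 and V2562 gave 1. Among vehicle hearts, leaving out V2532 gave 20, V2521 gave 14, V2526 gave 8 and V2529 gave 4. No gene was called without any one of V2563, V2573, V2574, V2527, V2528 or V2530. With V2523 put back 117 genes were called, 99 of them lower, and 77 of the 117 were genes raised in V2523.

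**Figure D1:**
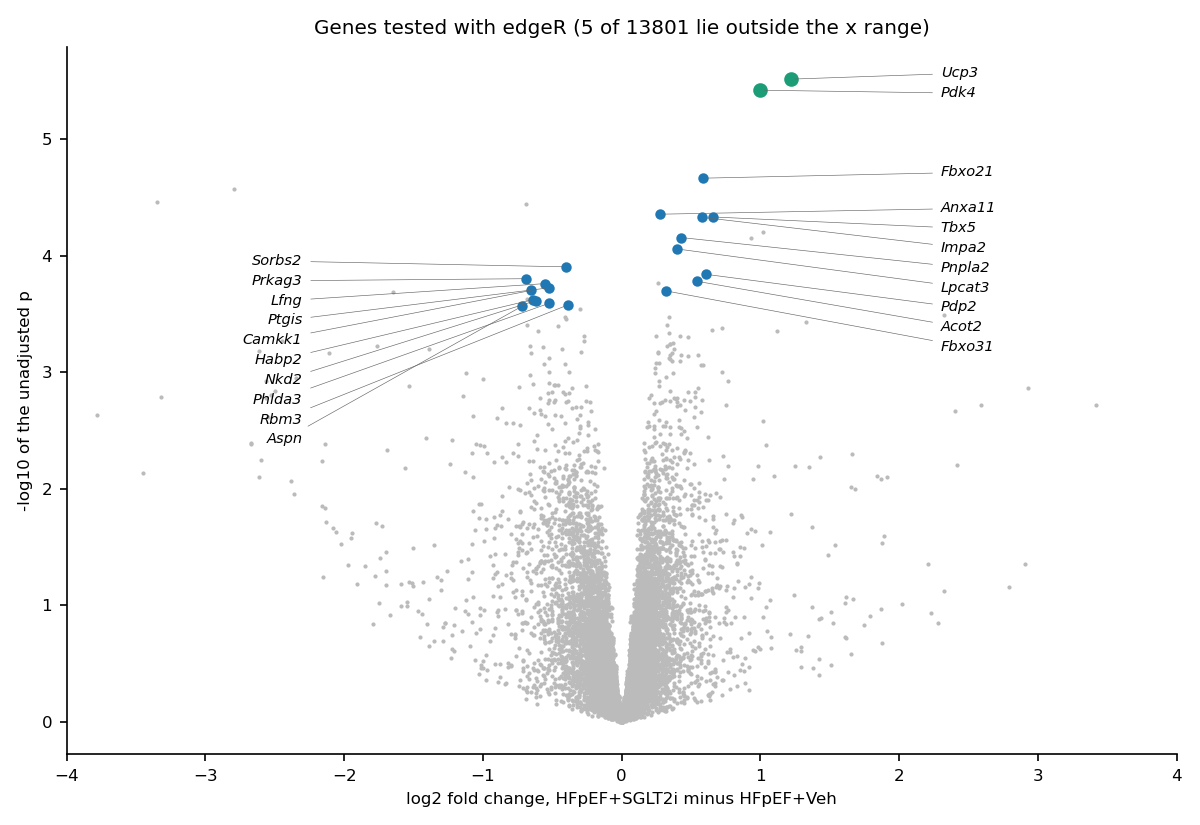
Log2 fold change of HFpEF+SGLT2i (n = 11) against HFpEF+Veh (n = 7) on the horizontal axis and minus log10 of the unadjusted edgeR p on the vertical axis, 1 point per gene tested. Green points are the 2 called genes, Ucp3 and Pdk4, blue points the other named genes of smallest p, and 5 genes lie outside the drawn range.

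Ucp3 and Pdk4 are textbook targets of PPARα in muscle. Ucp3 is a carrier of the inner mitochondrial membrane that appears when fatty acid supply is high, and its gene lies at chr7:100472990-100486432 on the plus strand (GRCm38, GENCODE M21, protein coding). Pdk4, at chr6:5483351-5496309 on the minus strand, phosphorylates and silences pyruvate dehydrogenase. Since they were called together, the sequence just before each start is shown, 5′ to 3′ on the gene's strand, from the RefSeq promoter table of GRCm38.p6. The stretches are chr7:100472741-100472989, 249 bases, and chr6:5496310-5496528, 219 bases, ending where the GENCODE gene begins, and an annotated predicted gene overlaps the first. Capitals mark AGGTCA, the half-site that nuclear receptors such as PPARα recognise in pairs, searched on both strands (TGACCT on the other).
Ucp3: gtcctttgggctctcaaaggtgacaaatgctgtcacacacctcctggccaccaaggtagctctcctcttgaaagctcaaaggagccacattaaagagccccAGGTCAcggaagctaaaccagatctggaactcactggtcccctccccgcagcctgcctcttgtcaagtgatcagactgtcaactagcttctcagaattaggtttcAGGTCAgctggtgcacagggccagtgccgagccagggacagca
Pdk4: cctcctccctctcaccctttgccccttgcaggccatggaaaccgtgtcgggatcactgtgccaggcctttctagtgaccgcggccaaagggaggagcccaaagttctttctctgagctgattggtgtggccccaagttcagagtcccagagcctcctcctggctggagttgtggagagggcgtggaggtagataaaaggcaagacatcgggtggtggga
The Ucp3 stretch held AGGTCA 2 times, beginning 149 and 44 bases before the RefSeq start, and the Pdk4 stretch held none. The 2 Ucp3 matches did not lie next to each other and are not counted here as a pair. Of 32851 promoter windows of 250 bases in the table, 4607 (14.0%) held the letters at least once and 440 (1.34%) at least 2 times. A match is a description of the letters and not a bound site, and its absence says only that these letters are not in this window.

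Ucp3 ran at 8.24 TPM in the lowest, 12.6 in the median and 14.9 in the highest of the 7 vehicle hearts. In the 11 treated hearts the lowest was 16, the median 27.2 and the highest 38.4. Every treated heart lay above every vehicle heart, V2523 at 15.2 included. The log2 fold change was 1.22 ± 0.22 (SE), from 12.2 ± 2.24 TPM (SD, n = 7) to 26.3 ± 6.71 (SD, n = 11), with an adjusted p of 0.0264 in edgeR and 7.62e-05 in DESeq2. Ucp3 kept a log2 fold change of 1.14 to 1.27 when single hearts were left out, was called in 12 of those 18 fits and in 6 of the 8 other alternatives, and missed the threshold with limma on log2(TPM + 0.1) and log2(TPM + 1), where the adjusted p was 0.112 and 0.0976.

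Pdk4 was sequenced more deeply. Vehicle hearts ran from 77.3 through a median of 114 to 156 TPM, and treated hearts from 138 through 213 to 385. The groups overlapped slightly: 9 of 11 treated hearts stood above every vehicle heart, and V2572 at 138 and V2566 at 152 lay below the highest vehicle heart, V2532. The log2 fold change was 1.00 ± 0.18 (SE), from 113 ± 26.7 TPM (SD, n = 7) to 215 ± 67.5 (SD, n = 11), with an adjusted p of 0.0264 in edgeR and 0.000108 in DESeq2. It ranged from 0.88 without V2563, the highest treated heart, to 1.10 without V2532, and Pdk4 was called in 11 of those 18 fits and 7 of the 8 other alternatives. The exception was the fit to the 2 groups alone, with an adjusted p of 0.0814. HFpEF+Veh V2523, the library with liver RNA, had 220 TPM, above the treated median, and putting it back lowered the log2 fold change to 0.86, still called.

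**Figure D2:**
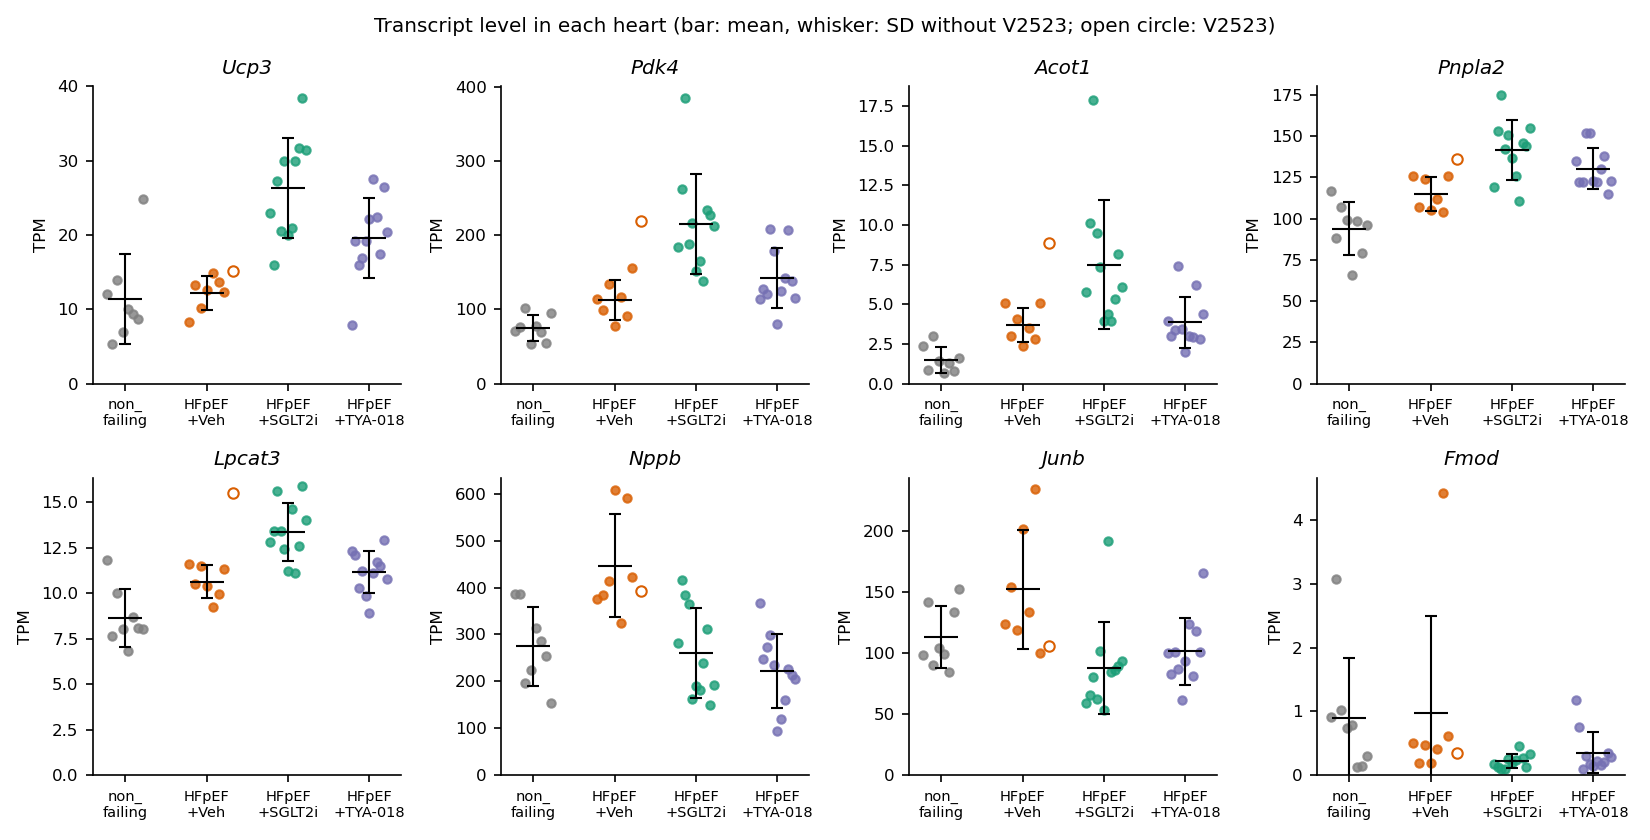
TPM of 8 genes in single hearts of non_failing (n = 8), HFpEF+Veh (n = 7), HFpEF+SGLT2i (n = 11) and HFpEF+TYA-018 (n = 11), 1 point per library, with the bar at the mean, the whisker giving the SD and the open circle showing V2523, which neither includes. Ucp3 of all 11 treated hearts lies above all vehicle hearts, between 16 and 38.4 TPM.

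**Figure D3:**
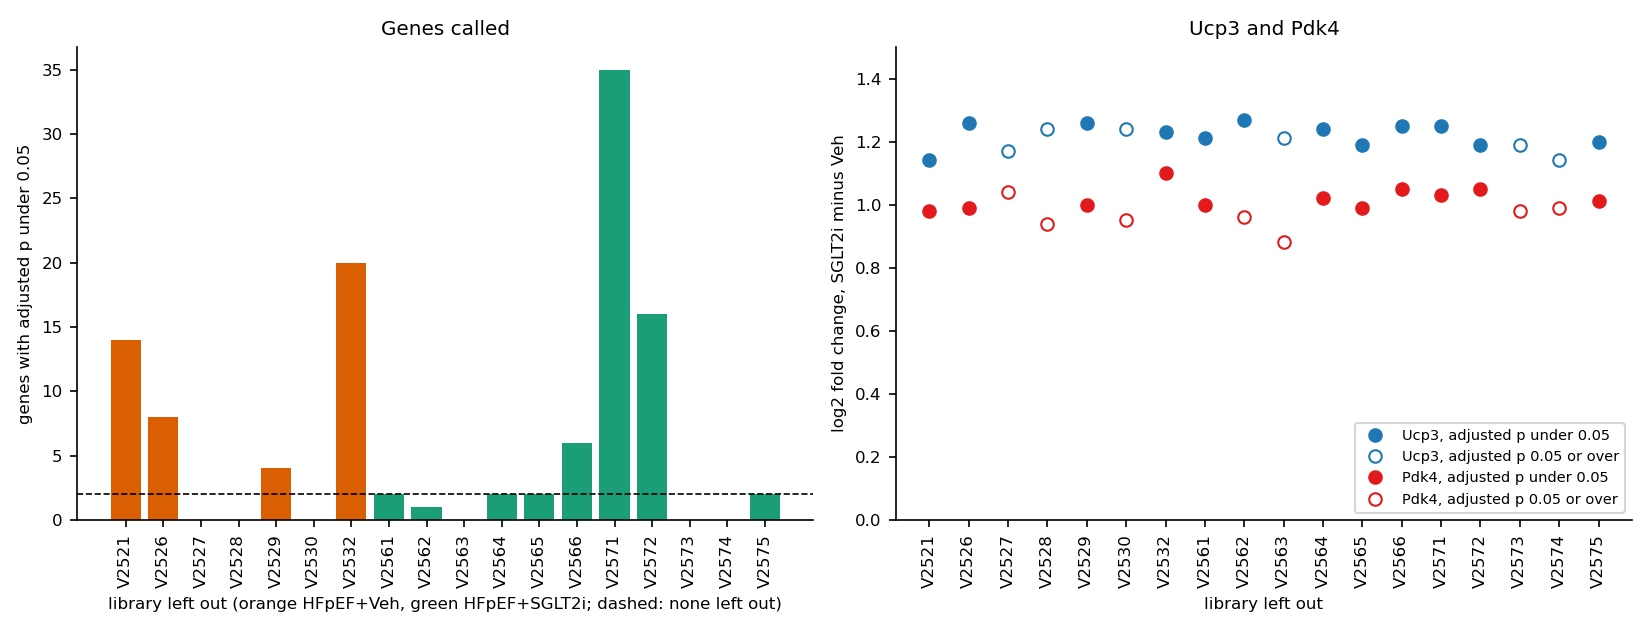
Number of called genes (left, dashed line at the 2 genes with no heart left out) and log2 fold change of Ucp3 and Pdk4 (right, filled where the adjusted p was under 0.05), HFpEF+SGLT2i against HFpEF+Veh, with each of the 18 hearts left out in turn along the horizontal axis. The count runs from 0 to 35, while Ucp3 stays between 1.14 and 1.27 and Pdk4 between 0.88 and 1.10.

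Ucp3 and Pdk4 belong to the list of PPAR targets, whose other members had mostly positive values without passing the adjusted threshold. Of its 17 genes 15 were tested, these 2 included, with Fgf21 and Cidec too low, and all 15 log2 fold changes were 0 or above, with a median of 0.43 against 0.006 over all genes. At an unadjusted p under 0.05, 13 were higher and none lower, where 5.38% of all genes were higher. The count was also 13 with V2523 put back, with scaling by library size alone and with any single heart left out. DESeq2 called 5 of them. Acot1, a cytosolic thioesterase that releases fatty acids from CoA, ran at 2.37 to 5.10 TPM (median 3.53) in vehicle and 3.95 to 17.9 (median 6.10) in treated hearts, a log2 fold change of 1.12 ± 0.29 with an adjusted p of 0.141. Its mitochondrial relative Acot2 stood at 26.0 to 38.8 TPM (median 32.1) against 28.5 to 60.7 (median 43.1), 0.54 ± 0.13 with an adjusted p of 0.123. The 2 genes are near-identical in sequence, and reads may have been shared between them. Angptl4, a secreted inhibitor of lipoprotein lipase, had 1.02 ± 0.32 and an adjusted p of 0.2, and its vehicle range of 4.39 to 14.1 TPM overlapped the treated range of 6.02 to 23.1.

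Lipid droplets are where cardiomyocytes hold triglyceride, and their genes were among the members. Pnpla2 encodes adipose triglyceride lipase, which opens the store. It ran at 104 to 126 TPM (median 112) in vehicle and 111 to 175 (median 144) in treated hearts, with 8 of 11 above every vehicle heart, 0.43 ± 0.10 and an adjusted p of 0.0822 (0.0118 in DESeq2, 0.0235 with V2523 put back). Plin5, a coat protein that ties droplets to mitochondria, had 0.52 ± 0.16 and an adjusted p of 0.192, and Plin2, the general droplet coat, 0.32. Ehhadh, the peroxisomal bifunctional enzyme of fat oxidation, was at 2.74 to 4.82 TPM against 3.40 to 6.17, with 0.57 ± 0.16 and an adjusted p of 0.146. Pex11a, which acts in peroxisome division, had 0.37. Fabp4, a fatty acid carrier of capillary endothelium, stood at 0.00 and the lipoprotein receptor gene Vldlr at 0.10. Acot1, Angptl4, Plin5 and Ehhadh were singled out after their values were seen.

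The fatty acid oxidation enzymes lay higher by a smaller amount. Of 24 genes 23 had a positive log2 fold change, with a median of 0.34, and 16 were higher and none lower at an unadjusted p under 0.05, but none was called. That count was 7 with scaling by library size alone, 10 with V2523 put back, and between 13 (without V2562) and 20 (without V2572) when 1 heart was left out. Mlycd, which removes the malonyl-CoA that blocks fatty acid entry, ran at 30.3 to 43.3 TPM (median 34.3) in vehicle and 32.3 to 52.4 (median 44.8) in treated hearts, with 0.38 ± 0.10 and an adjusted p of 0.141. Acacb, which makes malonyl-CoA at the mitochondrial surface, stood at 25 to 31.9 TPM (median 28.5) against 29.8 to 39.2 (median 32.6), 0.36 ± 0.10 and an adjusted p of 0.146 (0.0387 with V2523 put back). The carnitine shuttle gene Cpt1a had 0.26 ± 0.10 and an adjusted p of 0.316, its muscle form Cpt1b 0.10, Cpt2 0.28 and the carnitine carrier gene Slc25a20 0.41. Etfa, an electron acceptor of the acyl-CoA dehydrogenases, had 0.52, Acadm 0.49 and Eci2 0.45. Acadvl, the very long chain dehydrogenase, stood at 0.35 in counts and 0.09 once the deposited transcript lengths entered as an offset. Eci1 was the one negative member at -0.64 ± 0.94 and the files list it at 0 in some libraries of both groups and at up to 56.4 TPM in others.

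Treated hearts were not alike in this. Of the 24 fatty acid oxidation genes, between 22 and 24 stood above the vehicle mean in 9 of the treated hearts, but 4 in V2571 and 6 in V2572. Of the 15 PPAR targets those hearts had 11 and 10 above it, and the other 9 had 13 to 15. V2571 also had the lowest sum of cardiomyocyte markers. It held the highest treated sums of endothelial markers, at 3480 CPM against at most 2950 in vehicle, of endocardial markers, at 262 against 171, and of macrophage, T cell, mesothelial, erythrocyte and hepatocyte markers. The part of these in its values was not tested. Vehicle hearts spread too, from 2 of 24 oxidation genes above their own group's mean in V2530 to 20 in V2521.

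Ketone body genes were mostly positive, 6 of 8 with a median of 0.19, but not all of one direction. Among the enzymes that burn ketones, Bdh1 had 0.19 ± 0.20, Oxct1 0.19 ± 0.15 and Acat1 0.30 ± 0.17, with adjusted p of 0.744, 0.654 and 0.532. Those ranges overlapped almost entirely, Oxct1 at 85.8 to 163 TPM in vehicle and 69.5 to 203 in treated hearts. Bdh2, at under 2 TPM in every heart, had -0.86 ± 0.32 and an adjusted p of 0.314, and -0.54 without V2530. Of the 8 genes 2 were higher and 1 lower at an unadjusted p under 0.05.

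Glucose and pyruvate genes had mostly positive values. Of 24 glucose uptake and glycolysis genes 22 were positive with a median of 0.15, and 9 were higher at an unadjusted p under 0.05 (2 with scaling by library size alone, 5 without V2562, 12 without V2572). Eno3, the muscle enolase, ran at 336 to 404 TPM (median 369) in vehicle and 266 to 630 (median 454) in treated hearts. All but 2 treated hearts lay above every vehicle heart, V2571 was the lowest, and the log2 fold change was 0.40 ± 0.13 with an adjusted p of 0.255. Fbp2, the muscle fructose bisphosphatase, had 0.30 ± 0.11 and an adjusted p of 0.281. Pdp2, the phosphatase that switches pyruvate dehydrogenase back on and so opposes Pdk4, was at 1.31 to 3.18 TPM (median 2.08) against 1.68 to 4.24 (median 3.15), with 0.61 ± 0.14, an adjusted p of 0.123, 0.0281 in DESeq2 and 0.021 with V2523 put back. Tbc1d4, an insulin-regulated brake on glucose transporter traffic, had 0.53 ± 0.16 and an adjusted p of 0.175, and Grb10, an adaptor that dampens the insulin receptor, -0.20 ± 0.08 and 0.353. The other 16 insulin signalling genes did not reach an unadjusted p of 0.05, and that list's median was 0.04.

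In the TCA cycle and pyruvate entry list 27 of 28 tested genes were positive, with a median of 0.25, and 10 were higher at an unadjusted p under 0.05 with none called. This count rested on single hearts: it was 1 without V2530, 20 without V2571, 4 with V2523 put back and 1 with scaling by library size alone. Citrate synthase, Cs, was at 117 to 199 TPM (median 148) in vehicle and 108 to 248 (median 180) in treated hearts, 0.33 ± 0.14 with an adjusted p of 0.39. Mdh2, the malate dehydrogenase of the mitochondrion, had 0.26 ± 0.11 and an adjusted p of 0.379. V2571 had 0 and V2572 had 1 of the 28 genes above the vehicle mean, and 7 of the other 9 treated hearts had 24 or more. Pdpr was the one negative member at -0.07 ± 0.28, and 0.42 without V2532, which held 5.68 TPM against a vehicle median of 1.29. All 19 genes of branched chain amino acid breakdown were positive with a median of 0.26, and 3 were higher at an unadjusted p under 0.05, a count of 16 without V2532, 1 without V2530, 2 with V2523 put back and 0 with library size alone. Its members of smallest p were Bckdhb, of the branched chain ketoacid dehydrogenase, with 0.26 ± 0.10 and an adjusted p of 0.349 (0.08 with the length offset and 0.00 in both limma fits, with a mean of 35.7 TPM in either group), and Mcee, of the propionate route, with 0.25 ± 0.10 and 0.354.

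The respiratory chain lists had medians closer to that of all genes. Complex I subunits had a median log2 fold change of 0.04 with 22 of 35 positive, and the nuclear subunits of complexes III, IV and V had 0.04 with 22 of 36 positive. At an unadjusted p under 0.05, 2 and 4 of them were higher and none lower. Those counts were 0 without V2530 and 10 without V2571 for complex I, and 0 without V2562 or V2530 and 10 without V2572 or V2571 for the other complexes. With scaling by library size alone, which put the median of all genes at -0.06, 14 of 35 and 15 of 36 were positive. The medians were then -0.03 and -0.02, and no member was higher at that threshold, with 1 lower in complexes III, IV and V. The 4 electron transport genes that the study's text takes up were chosen on these libraries and are no independent evidence. The paper, which worked on log2(TPM + 1), reports them as significantly raised by both drugs. Atp5j had 0.08 ± 0.08, Atp5o 0.03 ± 0.08, Atp5h -0.01 ± 0.09 and Ndufa5 -0.08 ± 0.12, with adjusted p of 0.745, 0.887, 0.967 and 0.833. Atp5o turned to -0.04 with scaling by library size alone and with limma, and Atp5h to 0.06 with the length offset. The 13 genes of mitochondrial DNA took 33.1% ± 3.69 (SD, n = 11) of the counts in treated and 32.1% ± 2.94 (SD, n = 7) in vehicle hearts, with an exact permutation p of 0.569, two-sided (0.665 adjusted over the 2 library measures). mt-Co1, a core subunit of complex IV, had 0.22 ± 0.10 and an adjusted p of 0.446. Mitochondrial ribosomal proteins had a median of 0.11 with 66 of 77 positive, and cytosolic ribosomal proteins -0.11 with 8 of 79 positive, and 2 of the latter were higher and 3 lower at an unadjusted p under 0.05. The count of 3 was 15 with library size alone, 24 without V2532 and 1 without V2530. Of the mitochondrial ones 7 were higher, a count of 0 with library size alone, 2 with V2523 put back, 1 without V2565 or V2530 and 23 without V2571.

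**Figure D4:**
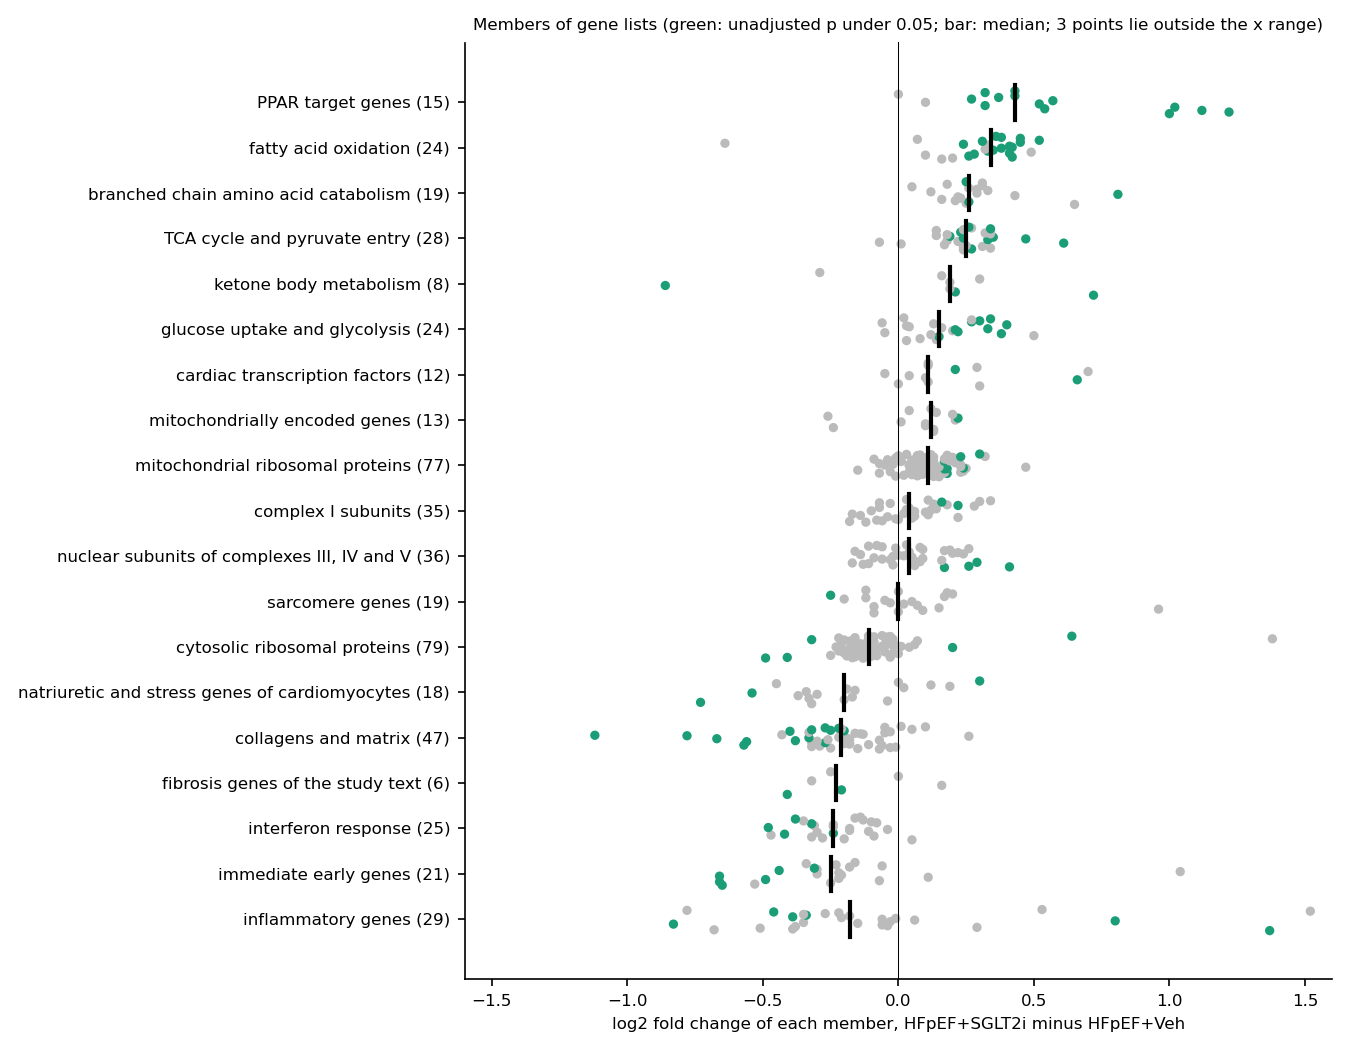
Log2 fold change of every tested member of the gene lists, HFpEF+SGLT2i (n = 11) against HFpEF+Veh (n = 7), 1 point per gene, green at an unadjusted p under 0.05, with the list median as a bar. The PPAR target list has the median of 0.43 and the collagen and matrix list one of -0.21, and 3 points lie outside the drawn range.

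No gene of the stressed heart muscle passed the adjusted threshold. Nppb encodes BNP, the natriuretic peptide that ventricles release under wall stress. It ran at 325 to 609 TPM (median 415) in vehicle and 149 to 416 (median 238) in treated hearts, with 8 of 11 below every vehicle heart. The log2 fold change was -0.73 ± 0.23 and the adjusted p 0.207 (0.106 in DESeq2). Abra, an actin-binding activator of growth genes, had -0.54 ± 0.22 and an adjusted p of 0.364, and Xirp2, of the intercalated disc, -0.30 ± 0.15 and 0.484. Cyr61, a matricellular stress protein, had -0.16 ± 0.15 and 0.708. Nppa, the atrial peptide, had -0.32 ± 0.37 and Myh7, the slow myosin, -0.20 ± 0.20, both with ranges that overlapped widely. Of the 18 genes in the list 14 were negative with a median of -0.20, and 2 were lower and 1 higher at an unadjusted p under 0.05. The lower count was 1 without V2528, 6 without V2562 and 4 with library size alone. Between 3 and 13 of the 18 genes stood above the vehicle mean in the treated hearts and between 4 and 16 in the vehicle hearts. The higher one was Clu, a secreted chaperone, at 0.30 ± 0.13, and -0.05 with V2523 put back.

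Immediate early genes, which switch on within minutes of a stimulus and of tissue handling, were negative for 19 of 21 members, with a median of -0.25, and 6 were lower at an unadjusted p under 0.05 (5.12% of all genes). Junb ran at 100.0 to 235 TPM (median 134) in vehicle and 53.1 to 192 (median 84.8) in treated hearts, with 9 of 11 below every vehicle heart, -0.66 ± 0.19 and an adjusted p of 0.162. Ier2 was at 102 to 215 TPM (median 150) against 52.9 to 176 (median 93.0), -0.66 ± 0.18 and 0.141. Egr1 had -0.49 ± 0.14 and Fos -0.65 ± 0.24, with adjusted p of 0.175 and 0.313. V2571 held the highest treated value of each of these 4 genes. In that heart 17 of the 21 genes stood above the vehicle mean, and in V2566 and V2572 none did. Atf3 had -0.34 ± 0.44, and 0.09 without V2526, whose 109 TPM was far above the vehicle median of 32.6.

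Matrix genes lay lower as a group by about the same amount. Of 47 collagens and matrix genes 43 were negative with a median of -0.21, and 15 were lower and none higher at an unadjusted p under 0.05, a count of 5 without V2530 and 20 without V2532. None was called, and DESeq2 called 2. Lama4, a laminin chain of vessel basement membranes, was at 11.6 to 29.1 TPM (median 20.3) in vehicle and 9.80 to 20.8 (median 15.6) in treated hearts, with -0.27 ± 0.07 and an adjusted p of 0.141. Postn, a matricellular protein of activated fibroblasts, ran at 11.3 to 44.1 TPM (median 21.3) against 8.25 to 19.6 (median 13.7), -0.67 ± 0.23 and 0.271. Ltbp2, which binds elastic microfibrils, had -1.12 ± 0.31 and an adjusted p of 0.157. Fmod, a collagen-binding proteoglycan, had -2.11 ± 0.57 and 0.141. V2530 set much of this: it held 4.42 TPM of Fmod against a vehicle median of 0.47, and without it Fmod had -0.82, Ltbp2 -0.56 and Postn -0.39. Aspn, another small leucine-rich proteoglycan, ran at 12.6 to 37 TPM (median 18.5) in vehicle and 9.75 to 15.4 (median 12.3) in treated hearts, with -0.72 ± 0.18 and an adjusted p of 0.129, and -0.46 without V2530. Egr1, Fos, Nppa, Myh7, Clu, Postn and Ltbp2 were singled out after their values were seen.

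Lum, Mmp2, Mmp17, Timp1 and Pdgfra, fibrosis genes that the study's text takes up, were picked on these libraries too. The paper reports them as significantly lowered by both drugs. Col3a1 was named in the paper as a fibrosis marker in both of its HFpEF models. Lum, a collagen-binding proteoglycan, was at 14.7 to 33.2 TPM (median 19.4) in vehicle and 12.4 to 21.5 (median 15.7) in treated hearts, -0.41 ± 0.16 with an adjusted p of 0.34. Mmp2, a gelatinase, had -0.21 ± 0.09 and 0.398. Col3a1, the fibrillar collagen III chain, had -0.25 ± 0.18 with equal medians of 14.9 TPM, and Timp1, a protease inhibitor, -0.32 ± 0.32. Mmp17 had 0.16 ± 0.16. Pdgfra, a fibroblast receptor, stood at -0.00 ± 0.08 with its sign turning to 0.02 when V2523 was put back. Fibroblast markers are given beside these. Of 8 markers 7 were negative with a median of -0.21, 3 were lower at an unadjusted p under 0.05 (none without V2530, 5 with library size alone), and their summed level was 985 to 2260 CPM (median 1640) in vehicle and 1090 to 1970 (median 1560) in treated hearts. Their part in the matrix values was not tested.

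Ion handling gave scattered members. Wnk2, a kinase that regulates sodium and chloride cotransport, ran at 5.55 to 7.82 TPM (median 7.19) in vehicle and 6.79 to 10.9 (median 10.1) in treated hearts. Here 10 of 11 treated hearts lay above every vehicle heart, with 0.48 ± 0.13 and an adjusted p of 0.141 (0.0278 with V2523 put back). Of 22 sodium handling and WNK genes 3 were higher and none lower at an unadjusted p under 0.05. The shares over all genes, 5.38% higher and 5.12% lower, stand beside this and the next counts. Among 18 potassium channels 2 were higher, or 5 without V2571: Kcnh2, of the rapid repolarising current, with 0.33 ± 0.12, and Kcnj2, of the resting potential, with 0.41 ± 0.16, at adjusted p of 0.286 and 0.32. In calcium cycling 2 of 15 genes were lower at that threshold, among them the kinase gene Camk2d at 20.3 to 26.3 TPM (median 23.2) against 14.7 to 24.2 (median 19), -0.19 ± 0.09 with 0.418. Tcap, the titin cap of the Z-disc, had -0.25 ± 0.11 and 0.402, alone among 19 sarcomere genes at an unadjusted p under 0.05. The lower sarcomere count was 0 without V2563 or with V2523 put back and 2 without V2521, and 3 were higher without V2571. The lower calcium count was 1 without V2566.

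Immune genes differed by member and by heart. S100a8 and S100a9, the neutrophil calprotectin pair, had log2 fold changes of 2.59 ± 0.77 and 2.40 ± 0.73 with adjusted p of 0.176 and 0.184. S100a8 ran at 0.443 to 3.95 TPM (median 2.47) in vehicle and 2.63 to 74.3 (median 6.05) in treated hearts, the 74.3 being V2571, and without that heart the values were 1.67 and 1.52. Ccl12, a monocyte chemokine, went the other way at 5.0 to 9.67 TPM (median 7.44) against 1.84 to 7.30 (median 4.33), -0.83 ± 0.26 with 0.205, and was singled out after its values were seen. Of 29 inflammatory genes 4 were higher and 4 lower at an unadjusted p under 0.05. The lower count was 8 with V2523 put back, 7 with library size alone and 9 without V2571, where 2 were higher. Interferon response genes were negative for 24 of 25, with a median of -0.24. There 5 were lower and none higher, a count of 11 with scaling by library size alone or without V2532 and 2 without V2530. B2m, of class I antigen display, was at 403 to 647 TPM (median 517) in vehicle and 295 to 506 (median 383) in treated hearts, -0.38 ± 0.14 with 0.293, and Oas1a, an antiviral sensor, had -0.48 ± 0.20 and 0.354. Macrophage markers summed to 186 to 300 CPM in vehicle and 167 to 302 in treated hearts, with a median log2 fold change of -0.07.

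Among 16 tubulin and tubulin acetylation genes 6 were lower and 1 higher at an unadjusted p under 0.05. Tuba1a ran at 43.6 to 79.9 TPM (median 59.3) in vehicle and 29.3 to 53.3 (median 39.1) in treated hearts, with -0.46 ± 0.12, an adjusted p of 0.141 and 0.043 in DESeq2. Its near-identical paralog Tuba1b had -0.13, so reads may have been split between them. Tubb2b, a beta tubulin, was at 1.22 to 2.05 TPM against 0.642 to 1.65, -0.53 ± 0.16 with 0.175. Hdac6, the tubulin deacetylase that TYA-018 inhibits, had 0.02.

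Other pathways discussed for this drug class had these members past an unadjusted p of 0.05, where 5.38% of all genes were higher and 5.12% lower. In nutrient deprivation signalling these were 2 of 25, Mtor, the growth kinase, with 0.17 ± 0.06 and an adjusted p of 0.277, and Sirt3, a mitochondrial deacylase, with 0.23 ± 0.09 and 0.319. In autophagy and lysosome it was Ulk1, which starts autophagosome formation, of 29, with 0.17 ± 0.08 and 0.402. Antioxidant genes had 3 of 25, led by Txnrd1, thioredoxin reductase, at 6.01 to 9.90 TPM (median 8.66) in vehicle and 7.57 to 11.8 (median 10.6) in treated hearts, 0.35 ± 0.09 with 0.141, and Gsr, glutathione reductase, with 0.27 ± 0.08 and 0.2. In the unfolded protein and integrated stress response list 2 of 26 were higher (5 without V2532, 0 with library size alone) and 1 lower (0 without V2528, 2 with library size alone or with V2523 put back). The higher ones were Atf5, a mitochondrial stress factor, with 0.21 ± 0.07 and 0.277, and Mthfd2, of mitochondrial folate metabolism, with 0.46 ± 0.20 and 0.382, and the lower one was Ddit3, which encodes CHOP, with -0.44 ± 0.16 and 0.304. Nitric oxide and cGMP genes, the route that L-NAME blocks, had 1 of 14, Ddah2, which clears an inhibitor of nitric oxide synthase, at -0.30 ± 0.11 and 0.314. That lower count was 0 without V2530, and 2 without V2526, with library size alone or with V2523 put back. Srebf1, a regulator of lipid synthesis, had 0.28 ± 0.08 and 0.175, Slc40a1, the iron exporter, 0.56 ± 0.21 and 0.316, and the proteasome subunit gene Psmd2 0.24 ± 0.11 and 0.443. Leaving out 1 heart moved the higher counts of the nutrient list to 5 and of the antioxidant list to 8 (both without V2532) and of the autophagy list to 6 (without V2572) or 0 (without V2575, V2521, V2527 or V2529). With library size alone the nutrient and autophagy counts were 0. No adrenergic, angiotensin or endothelin gene of 13 reached that threshold, and Adrb1, the cardiac beta receptor, had 0.31 ± 0.20. Clock was the 1 circadian gene, under 1 TPM in every heart, and Mt1, a metallothionein, the glucocorticoid-responsive gene of smallest p after Pdk4, with 0.34 ± 0.17 and 0.484.

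Across all genes, those of smallest p were named up to 12 per direction. Higher but not called were Fbxo21 and Fbxo31, substrate receptors of ubiquitin ligases, Anxa11, a calcium-dependent membrane binder, Tbx5, a T-box factor of heart development, Impa2, an inositol phosphatase, and Lpcat3, which loads polyunsaturated fat into phospholipids. Fbxo21 ran at 3.94 to 6.32 TPM (median 5.13) in vehicle and 5.13 to 9.27 (median 6.94) in treated hearts, 0.59 ± 0.12 with an adjusted p of 0.0721. Tbx5 was at 1.54 to 3.22 TPM (median 2.00) against 1.94 to 5.07 (median 3.12), 0.66 ± 0.14 with 0.0721. Lpcat3 was at 9.23 to 11.6 TPM (median 10.5) against 11.1 to 15.9 (median 13.4). Of its treated hearts 9 of 11 lay above every vehicle heart, with 0.40 ± 0.09 and 0.0932. Anxa11 had 0.28 ± 0.06, Impa2 0.58 ± 0.13 and Fbxo31 0.32 ± 0.08, with adjusted p between 0.0721 and 0.123. DESeq2 called all 6, and with V2523 put back Anxa11, Tbx5, Impa2 and Fbxo31 were called, at adjusted p of 0.0125, 0.00612, 0.0445 and 0.0117.

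The 11 lower genes described by that rule, Aspn above among them, were not called. One known only by a clone name ran at 2.38 to 4.21 TPM (median 3.75) in vehicle and 1.35 to 2.86 (median 2.06) in treated hearts, 8 of 11 below every vehicle heart, -0.69 ± 0.15 with an adjusted p of 0.0721 (0.00745 in DESeq2, 0.0494 with library size alone, 0.0341 with V2523 put back). Sorbs2, an adaptor of Z-discs and intercalated discs, ran at 62.9 to 89.0 TPM (median 72.6) in vehicle and 36.6 to 69.1 (median 53.4) in treated hearts, 8 of 11 below every vehicle heart, -0.40 ± 0.09 with an adjusted p of 0.123. Rbm3, a cold-inducible RNA-binding protein, was at 65.7 to 87.7 TPM (median 79.0) against 48.3 to 69.4 (median 57.2), 10 of 11 below, -0.39 ± 0.10 with 0.129. Ptgis, prostacyclin synthase, had 5.12 to 12.2 TPM (median 8.15) against 4.33 to 6.11 (median 5.26), -0.52 ± 0.12 with 0.123. Prkag3, a regulatory subunit of the energy sensor AMPK, had -0.69 ± 0.16, and Camkk1, an upstream kinase of the calmodulin kinase family, -0.65 ± 0.16. The secreted protease gene Habp2 had -0.64 ± 0.16, Nkd2, a brake on Wnt signalling, -0.62 ± 0.15, Lfng, which modifies Notch, -0.55 ± 0.13, and Phlda3, a p53-induced repressor of AKT, -0.52 ± 0.13. Apart from the gene with a clone name, their adjusted p lay between 0.123 and 0.129, and DESeq2 called all 11. Habp2 and Rbm3 were also called with V2523 put back, at 0.0139 and 0.0304, and Sorbs2 with library size alone, at 0.0494.

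Marker genes of other cells were looked at beside these values. Of 8 endothelial markers none reached an unadjusted p of 0.05, with a median of -0.04, and the 4 tested endocardial markers had a median of -0.36 with 2 lower. The endocardial count was 1 without V2562, and that median ran from -0.47 to -0.24 with 1 heart left out. Erythrocyte genes had 5 of 6 lower with a median of -1.0, led by the globin gene Hbb-bs at 2540 to 19000 TPM in vehicle and 2090 to 7010 in treated hearts, -1.05 ± 0.34 with an adjusted p of 0.248. None was lower at that threshold without V2529, which held the highest globin level. Fast skeletal muscle genes had 3 of 5 tested lower, Tnnt3 among them with -2.79 ± 0.58 and an adjusted p of 0.0721. V2532 alone carried these at 16.9 TPM of Tnnt3 against a vehicle median of 0.589, and without it Tnnt3 had -0.30. Hepatocyte genes, V2523 aside, summed to 29.6 to 95.2 CPM in vehicle and 18.7 to 53.6 in treated hearts, with 13 of 26 lower (4 without V2532, 21 without V2521). In the atrial list 5 of 6 tested genes were positive with a median of 0.38, and 2, Tbx5 and Bmp10, were higher at that threshold. Tbx5, described above, had 0.66 ± 0.14 and an adjusted p of 0.0721. Bmp10, at 0.258 TPM or below in every heart, had 1.43 ± 0.48 and an adjusted p of 0.269. The sum of atrial markers was 71.9 to 196 CPM in vehicle and 51.8 to 175 in treated hearts. The 9 pericyte and smooth muscle, 5 T cell, 6 B cell, 5 epicardial and 6 Schwann and neuronal markers tested had none at that threshold in either direction. White adipocyte markers summed to 0.24 to 3.9 CPM (median 1.0) in vehicle and 0.0408 to 1.17 (median 0.472) in treated hearts. Only Car3, a carbonic anhydrase, passed the filter of these 7, with -1.69 ± 0.56 and an adjusted p of 0.257, and it was not past the unadjusted threshold without V2532 or in either limma fit. Brown adipocyte markers summed to 378 to 608 CPM in vehicle and 395 to 600.0 in treated hearts. This sum is no measure of brown fat. It includes Cox7a1, at 0.05 ± 0.11, which is also on the list of complexes III, IV and V, and Ucp1 and Elovl3 did not pass the filter. Of the 3 tested, Cidea, a lipid droplet protein, had 0.24 ± 0.08 and 0.248, and Dio2, a thyroid hormone deiodinase, -0.97 ± 0.32 and 0.258, no longer past that threshold without V2530. The part of fat cells in the values of the lipid genes was not tested. Hbb-bs, Tnnt3, Bmp10, Car3, Cidea and Dio2 were singled out after their values were seen.

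The same vehicle hearts can be set beside healthy ones, and these values share the vehicle libraries with the comparison above. Against non_failing, HFpEF+Veh had 620 called genes (4.49%). Ucp3 was not called there, with a log2 fold change of -0.00 and an adjusted p of 0.995, its non_failing range being 5.38 to 24.9 TPM. Pdk4 had 0.54 and 0.102, at 52.7 to 102 TPM (median 73.1) in non_failing, so the order of medians was non_failing, HFpEF+Veh, HFpEF+SGLT2i. Angptl4 at 1.66, Acot1 at 1.22, Acot2 at 0.71 and Fbp2 at 1.10 were called higher in vehicle than in healthy hearts. Of the PPAR targets 6 of 15 and of the fatty acid oxidation genes 5 of 24 were called higher in vehicle than in healthy hearts, with list medians of 0.39 and 0.24, the sign that the empagliflozin comparison had. The sign was opposite for branched chain amino acid breakdown, with a median of -0.45 and 4 genes called lower, and for the TCA list, with -0.25 and none called. It was also opposite for the matrix list, with 0.21 and 6 called higher, and for the stress list, with 0.36 and 5 called higher.

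TYA-018 hearts give a drug contrast that does not use the vehicle means. Its filter, scaling and spread came from the same fit of 37 libraries, the vehicle hearts included. No gene was called between HFpEF+SGLT2i and HFpEF+TYA-018 (0.0%), while 1871 had an unadjusted p under 0.05, of which 990 were lower with empagliflozin (7.17%). Ucp3 ran at 7.90 to 27.5 TPM (median 19.2) with TYA-018, and the empagliflozin hearts differed from these by 0.38 with an adjusted p of 0.364. Pdk4 had 80.1 to 209 TPM (median 128) with TYA-018, a difference of 0.61 and an adjusted p of 0.0941. Lower with empagliflozin at that unadjusted threshold were 35 of 79 cytosolic ribosomal proteins, 33 of 77 mitochondrial ribosomal proteins, 13 of 35 complex I subunits and 17 of 36 subunits of complexes III, IV and V, and none of these passed the adjusted threshold. Against the shared vehicle hearts TYA-018 had 196 called genes (1.42%). Beside the empagliflozin values above, Ucp3 had 0.84 with an adjusted p of 0.0441, Pdk4 0.38 with 0.23, Nppb -0.89 with 0.0404 and Junb -0.44 with 0.184. The medians of whole lists, chosen here after their values were seen, lay near each other in some lists and apart in others, and both drugs are set against the same vehicle hearts. They were 0.34 with empagliflozin and 0.27 with TYA-018 for fatty acid oxidation, 0.25 and 0.26 for the TCA cycle and 0.26 and 0.27 for branched chain amino acid breakdown. They were -0.21 and -0.31 for collagens and matrix, -0.25 and -0.31 for immediate early genes and -0.20 and -0.26 for cardiomyocyte stress genes. Farther apart were complex I with 0.04 and 0.19, complexes III, IV and V with 0.04 and 0.20, mitochondrial ribosomal proteins with 0.11 and 0.25, cytosolic ribosomal proteins with -0.11 and 0.07, interferon genes with -0.24 and -0.05, PPAR targets with 0.43 and 0.29, and glucocorticoid-responsive genes with 0.12 and -0.18. Differences between these medians were not tested.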

How the data were processed

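Left ventricular polyA RNA libraries were quantified by the authors with Salmon 1.6.0, as the submitters' processing notes give it. The deposited files hold, per gene, estimated counts, TPM and effective lengths, 1 table per measure with a column for each of the 38 libraries. The methods name a GRCm38 annotation, the processing notes also name a human build, and labels and methods differ on read length and pairing. Gene positions came from GENCODE M21 (27812 of 29564 gene symbols found). The authors' estimated counts were rounded to whole numbers. The deposited TPM values were used as levels and, rescaled without mitochondrial genes, as log2(TPM + 1) and log2(TPM + 0.1) in limma.

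Groups came from sample titles, and 0 value columns were left unmapped. edgeR 4.0.16 (R 4.3.3) quasi-likelihood tests were run on 37 libraries of 4 groups with filterByExpr and TMM, without V2523, adjusted by Benjamini-Hochberg over all 13801 genes and called at 0.05. Log2 fold changes are given ± SE. Named genes were up to 12 per direction of smallest p with an average log2 CPM of at least 1, leaving out hepatocyte genes and genes whose CPM in V2523 exceeded that of each remaining vehicle heart by 4-fold or more (prior count 2), up to 2 per list, and genes in the study's text. Other genes named within lists were chosen after their values were seen. The comparison and the lists were chosen with earlier results of these data known. Alternatives were DESeq2 1.42.0, limma 3.58.1, V2523 put back, a length offset, library size alone, no filter, the 2 groups alone and each of 18 libraries left out. The tests were tested on simulated data. No pair among the 19 libraries was identical (0 pairs). P-values set a difference between groups against the spread between libraries, which the edgeR fit took from all 37. Whether mice shared cages or preparation days is not given in the sources used here. The authors' counts carry no molecular identifiers, so low counts are limited by sampling as well as by the estimate. Some named genes are not reported here.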

Additional observations from a re-analysis of the deposited data

Results flagged for a closer look

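For 8 of 119 named genes, 1 vehicle heart stood apart from the other 6: its gap to the nearest heart was a larger share of the group's whole range than Dixon's critical value for 7 samples allows. Chance gives this in about 1 in 20 groups. The 11 treated hearts are too many for this rule and were not looked at in this way.

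HFpEF+Veh V2530 was the high heart for the matrix genes Fmod at 4.42 TPM (gap 0.902 of the range), Ltbp2 at 2.69 (0.683) and Aspn at 37 (0.639), and for the ketone gene Bdh2 at 1.63 (0.682). HFpEF+Veh V2532 was the high heart for the fast skeletal muscle troponin gene Tnnt3 at 16.9 TPM (0.985), Pdpr at 5.68 (0.887) and Clock at 0.822 (0.772). Atf3 reached 109 TPM in V2526 (0.607).

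V2523, which the comparison leaves out, had a hepatocyte marker sum of 4300 CPM, where the highest other vehicle heart had 95.2. In it 88 genes exceeded each remaining vehicle heart by 4-fold or more, and 25 of these were hepatocyte markers.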

How the results depend on the processing

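Against 2 called genes, both higher, the count was 45 with DESeq2 (23 higher, 22 lower, adjusted p NA for 803 genes), 117 with V2523 put back (18 higher, 99 lower), 7 with library size alone (2 higher, 5 lower), 4 with no filter on low counts (2 higher, 2 lower), 1 in each limma fit (1 higher, 0 lower) and 1 in the fit to the 2 groups alone (1 higher, 0 lower). It was 2 (2 higher, 0 lower) with the length offset. Leaving out 1 heart gave 0 to 35 called genes, 0 to 20 higher and 0 to 15 lower. Library size alone moved the median of all genes to -0.06. Over 119 named genes the sign turned for 6. Pdgfra was 0.02 with V2523 put back, 0.03 with the length offset, 0.01 with no filter and -0.04 to 0.03 with 1 heart left out. Atp5h was 0.06 with the length offset and -0.06 to 0.03 with 1 heart left out. Atp5o was -0.04 with library size alone and in both limma fits, and -0.00 to 0.07 with 1 heart left out. Atf3 ran from -0.57 to 0.09 and Pdpr from -0.26 to 0.42 with 1 heart left out, and Pdpr was 0.00 and Clu -0.05 with V2523 put back. The cause was not tested. The mitochondrially encoded genes have no value in limma, whose TPM leave them out. No paired analysis was possible because the mouse numbers differ between the groups. Genes under about 1 TPM, such as Fmod, Clock and Bmp10, rest on few reads.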
